A study of Carica papaya with 7 samples.

Results

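The probe sets described here gave bright signals in papaya pulp that differed little between unripe and ripe fruit. Pulp RNA of Carica papaya L. cv. 'Golden' was hybridized to the Affymetrix ATH1 GeneChip, an array of short probes made for Arabidopsis thaliana. Unripe and ripe pulp, with 12 fruits behind each sample, have 3 columns of values each. The study places 1 pair of samples in the harvest of 2007 and the others in that of 2010, and no treatment or genotype separates the stages. Members were the probe sets whose mean signal was above 40 in both stages and whose ratio of ripe to unripe means lay between 0.8 and its inverse, called the ratio window below. Array controls, the block of probe numbers that holds the organelle genomes and probe sets with a lower-case organelle gene symbol were left out, and what remains is called nuclear candidates. A probe set without a symbol could be left out only by its control name or probe number. The word nuclear is therefore a label of the rule and not a tested origin. This gave 16 of the 22810 probe sets. The members were chosen by the signals and ratios of this comparison, so that their brightness and steadiness are a description and no finding.

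A cross-species array reports a transcript where its papaya sequence is close enough to the Arabidopsis probes to bind them. Genes whose products build the cytoskeleton or drive protein synthesis change slowly in evolution and are used in nearly every plant cell. Alpha-tubulin, which pairs with beta-tubulin to build microtubules, and elongation factor 1-alpha, which brings charged transfer RNA to the ribosome, are textbook examples, and such genes often serve as references for expression measurements.

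The replicate columns did not hold separate measurements. In each stage column 2 was column 1 times 1.19 for every probe set, and column 3 was the mean of both, with a deviation of at most 0.00109 in the signal. Each stage was therefore counted as 1 set of values. No difference below has an SD, a p-value or a replicate check, and the harvest years cannot be compared. The values are probe set intensities on a linear scale, as deposited. The median nuclear candidate had a signal of 4.20 at the unripe and 4.21 at the ripe stage, and the brightest of the 27 Bacillus subtilis control probe sets, which match no plant gene, reached 8.24. The members spanned 41.3 to 478.

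Few of the members could be tied to a gene. The platform annotation paired 2 of the 16 with 1 gene symbol and 2 with several, and gave none for the other 12, which are therefore named only by probe set. Of all 22574 nuclear candidates, 59.4% had 1 symbol and 38.5% had none. The lack of a symbol was not particular to the members. It held for 62.5% of the candidates above 40 in both stages but outside the ratio window. Where the lower of both stage means was from 20 to 40, it held for 56.1%. The functions that could be read were cytoskeleton, translation elongation and a locus related to the mitochondrial genome.

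The alpha-tubulin probe set 245915_s_at is paired with both TUA3 and TUA5, so that its signal cannot be assigned to either gene. Its signals were 115, 137 and 126 in the unripe columns and 104, 123 and 113 in the ripe columns. The ripe values lay below the unripe values column by column, while the ranges of the stages overlapped through the constant factor. The ratio of means was 0.897, a log2 difference of -0.16. In pulp of many cell types, fewer cells of a type and less RNA per cell cannot be told apart.

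The elongation factor 1-alpha probe set 247644_s_at is paired with 4 loci, AT1G07920, AT1G07930, AT1G07940 and AT5G60390. It read 46.8, 55.7 and 51.2 in the unripe columns and 48.3, 57.4 and 52.8 in the ripe columns. Both stages were nearly level, at a ratio of 1.03 and a log2 difference of 0.045.

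AT3G47310 (252434_s_at) had signals of 37.8, 45.0 and 41.4 in the unripe columns and 37.7, 44.8 and 41.3 in the ripe columns. Its ratio was 0.998. It is also the member nearest to the lower signal limit, and 1 column of each stage lay under 40.

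AT2G07707 (265230_s_at) had signals of 436, 519 and 478 in the unripe columns and 429, 511 and 470 in the ripe columns, a ratio of 0.984. Its locus number sits uneasily with the nuclear label. Chromosome 2 of Arabidopsis carries a large insertion of mitochondrial DNA, and of the 49 probe sets paired with loci from AT2G07600 to AT2G07799, 11 are also paired with an organelle gene symbol. Of these 11, the ones with both means above 40 are those of atp1, cox3, rps12 and cob, which the rule left out for their symbols, and AT2G07751 was left out by its probe number. AT2G07707 carries neither mark and so passed. That insertion belongs to the Arabidopsis genome, whereas the RNA here was from papaya. Whether the signal of AT2G07707 came from a nuclear or a mitochondrial transcript of papaya cannot be told apart here. Without AT2G07707, 15 members remain.

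**Figure D1:**
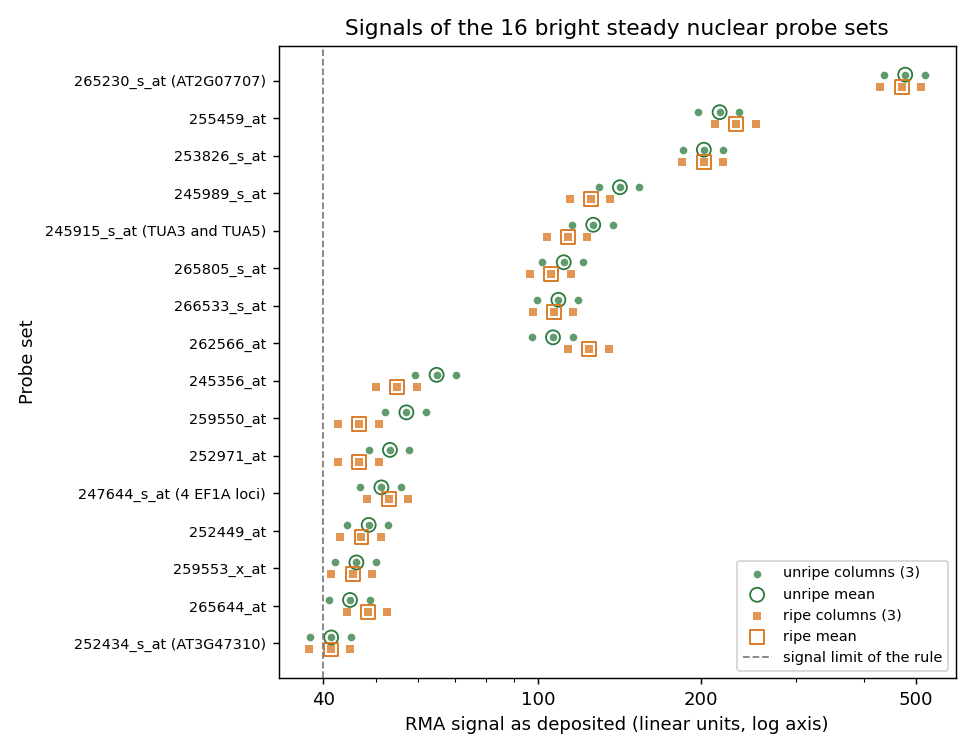
Signals of the 16 members (RMA signal, linear units on a log axis) in the 3 unripe and 3 ripe columns, with open symbols for the stage means and a dashed line at the signal limit of 40. The 3 points of a stage repeat 1 set of values, scaled by a constant factor, and the stage means lie close to each other in every row, from a ratio of 0.819 for 259550_at to 1.17 for 262566_at.

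Among the unnamed members, 253826_s_at was nearest to an equal signal in both stages. It read 185, 220 and 202 in the unripe columns and 185, 220 and 202 in the ripe columns, a ratio of 0.999. Close behind were 259553_x_at, at a ratio of 0.984, and 266533_s_at, at 0.981. The log2 differences of all 3 were within 0.03 of 0 (-0.0015, -0.023 and -0.028).

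The probe set 255459_at read 198, 235 and 217 in the unripe columns and 212, 253 and 233 in the ripe columns, and its ratio was 1.07. It was on the higher side in ripe pulp together with 265644_at (44.8 and 48.4, ratio 1.08), 262566_at and the elongation factor probe set. The highest ratio of the members was that of 262566_at, with 97.2, 116 and 106 in the unripe columns and 113, 135 and 124 in the ripe columns. These 4 were the members above a ratio of 1.

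As deposited, the other 12 members were lower in ripe pulp, 253826_s_at by a log2 difference of only -0.0015, and still inside the window. The probe set nearest to its lower edge was 259550_at, with 52.0, 61.9 and 57.0 in the unripe columns and 42.6, 50.7 and 46.7 in the ripe columns, a ratio of 0.819. Next to it were 245356_at (64.8 and 54.9, ratio 0.846), 252971_at (53.1 and 46.6, ratio 0.877) and 245989_s_at (142 and 125, ratio 0.883). Less far from 1 were 265805_s_at (111 and 106, ratio 0.948) and 252449_at (48.5 and 47.1, ratio 0.970). Over the 16 members the median log2 difference was -0.025, beside -0.0044 over all nuclear candidates.

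Of the 16 members 10 lay within 1.1 fold. They were 5 of the 8 members with a lower stage mean above 60 and 5 of the 8 below it, and 3 of the 4 with a gene symbol against 7 of the 12 without. The rule used the same means and ratios, so that these counts are a description.

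Bright nuclear signals were rare and were not all steady. Only 24 nuclear candidates had both means above 40, and 66.7% of them fell inside the ratio window, against 93.1% of all nuclear candidates. The 8 outside were evenly divided, with 4 higher and 4 lower in ripe pulp, while 3.53% of all nuclear candidates were above the window and 3.38% below it. Just past the upper edge stood 252713_at (43.4 and 55.6, ratio 1.28), followed by AT5G59170 (93.6 and 131, ratio 1.40), 246185_at (1.72) and 259077_s_at (191 and 374, ratio 1.95). Just past the lower edge stood AT2G07741 (194 and 152, ratio 0.784), another locus of the block on chromosome 2, then 250995_at (0.718) and 265857_s_at (0.680). The probe set 258712_s_at, paired with AT3G09680 and AT5G02960, which encode a protein of the small ribosomal subunit, was at 324 and 210, a ratio of 0.647. Of the 33 bright organelle probe sets, 42.4% were inside the same window.

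**Figure D2:**
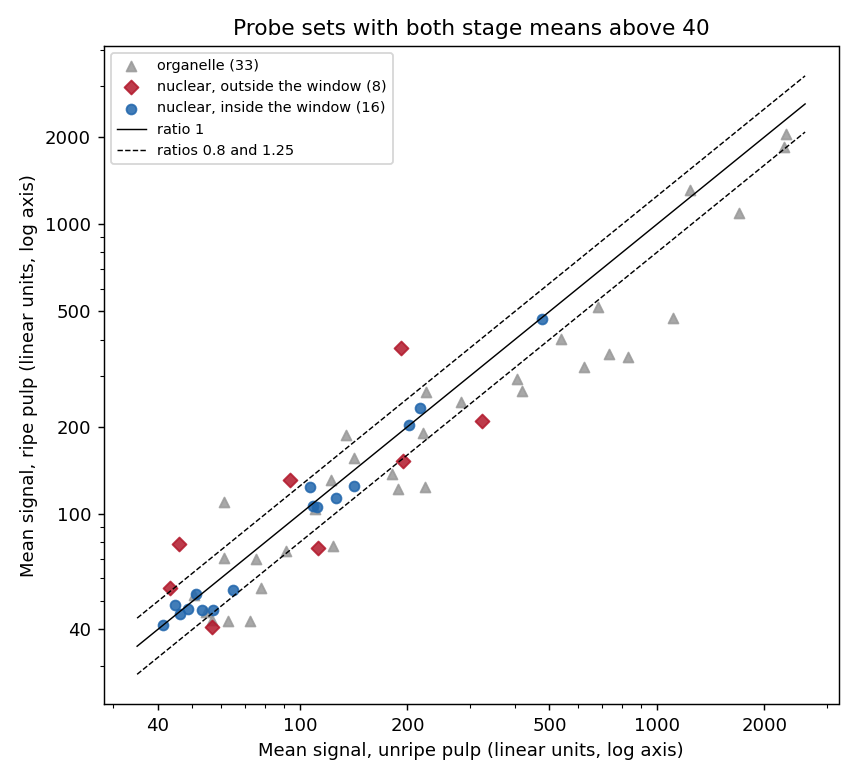
Mean ripe against mean unripe signal (linear units, both axes logarithmic) for the nuclear and organelle probe sets with both means above 40, with a line at a ratio of 1 and dashed lines at both edges of the ratio window. The 16 members lie between the dashed lines by definition, 8 nuclear probe sets lie outside, and many of the 33 organelle probe sets lie below the lower line.

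The share inside the window was lower among the nuclear candidates above 40 than in the 5 dimmer classes. It was 96.3% where the lower stage mean was at most 3, 93.9% from 3 to 5, 90.2% from 5 to 10, 88.2% from 10 to 20 and 91.8% from 20 to 40. Of the 98 candidates in the last of these classes, 90 were inside, against 16 of 24 above 40. The SD of the log2 differences over probe sets was 0.21 from 20 to 40 and 0.38 above 40. Without replicates these shares describe 1 table of values, and probe sets are not independent replicates.

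**Figure D3:**
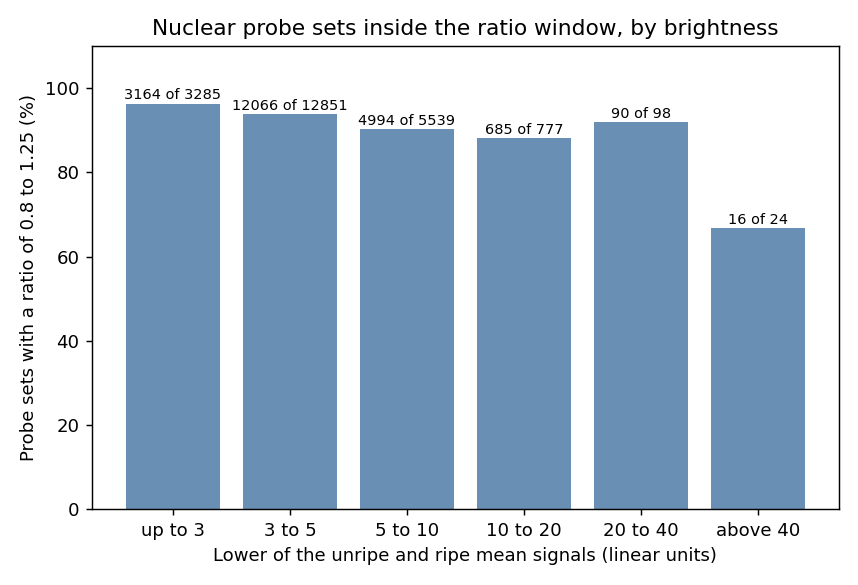
Percentage of nuclear candidates with a ripe to unripe ratio inside the window, by the lower of both stage means (linear units), with the counts above the bars. The bars stay between 88.2% and 96.3% up to a signal of 40, and the class above 40 stands at 66.7%.

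Inside the ratio window, 12 nuclear candidates had a lower stage mean from 30 to 40, and the 5 nearest to the signal limit are given here. The probe set 251997_at had means of 39.8 and 40.2, and 246290_at had 39.7 and 47.7. The probe set 250235_s_at is paired with AT5G13430 and AT5G13440, loci of the Rieske iron-sulphur protein of the mitochondrial respiratory chain, and had means of 42.2 and 36.7. AT3G44140 was at 43.9 and 36.5. The probe set 255052_at had means of 36.4 and 38.8.

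A property that the rule did not use was the type of probe set. On this array the suffix _s_at marks probe sets whose probes match several related transcripts, and _x_at those with some probes that can bind unrelated ones. Of the members 8 of 16, or 50.0%, had the suffix _s_at and 1 had _x_at, against 3.996% and 0.558% of the nuclear candidates. Of the bright nuclear probe sets outside the window, 4 of 8 were of the type _s_at and none was _x_at. Among candidates with a lower stage mean from 20 to 40 only 2 of 98 were _s_at, or 2.04%. Within the members, 6 of 8 _s_at probe sets and 3 of 7 without a suffix letter were within 1.1 fold. All 4 members with a gene symbol were _s_at probe sets. The part of shared probes in the bright signals was not tested.

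The lists of widely used gene families, chosen with earlier results of these data known, held 216 different loci and matched 52 nuclear probe sets in 12 of 19 families. Of these 52, 44 had a ratio inside the window (84.6%, against 93.1% of nuclear candidates), 5 were above it and 3 below. Their median log2 difference was 0.0099, beside -0.0044 over all nuclear candidates. Of the 52, 2 were members, the alpha-tubulin and elongation factor probe sets, beside 16 of all 22574 nuclear candidates. Most matched probe sets were dim, since 10 of 52 were brighter than the brightest Bacillus control in both stages, 8 of them inside the window. No probe set was matched by a listed locus or symbol for calmodulin, 14-3-3 proteins, small GTPases, PP2A phosphatases, the methyl cycle and aquaporins, which says nothing of their transcripts. Ribosomal proteins were searched by symbol alone, with no match, so that 258712_s_at is not among the 52.

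Of the 8 tubulin probe sets, 7 were inside the window. TUA1 had means of 8.08 (unripe) and 7.66 (ripe) and TUA6 had 6.28 and 6.10, under the brightest Bacillus control, as were the beta-tubulins TUB1, TUB5, TUB6 and TUB7. TUB9 was the exception, with a ratio of 0.739 from signals of 5.04 and 3.72. The translation list held 3 probe sets, all inside the window, and beside the elongation factor these were the initiation factor EIF4A-2 (ratio 0.897) and AT1G72730 (0.887), both dim.

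In the other families both steady signals and signals outside the window lay below the limit of 40. GAPC2, the cytosolic glyceraldehyde phosphate dehydrogenase of glycolysis, had means of 21.4 and 23.9, a ratio of 1.12. A probe set for the proteolipid subunit of the vacuolar proton pump (263267_at, paired with VHA-C3, AVA-P1 and AT2G16510) was at 22.9 and 24.3, a ratio of 1.06. Paired with the same 3 genes, 252926_at had a ratio of 1.32. The dimmer 253200_at, also paired with them, had means of 7.03 and 6.605, a ratio of 0.939. The heat shock cognate AT3G09440 was at 10.4 and 10.9, a ratio of 1.05. The histone H3 variant probe sets 252824_at and 252849_at, paired with the same 3 loci, had ratios of 1.01 and 1.20. Also paired with these loci, 250397_at was dim, with means of 3.01 and 3.03. Of the 18 histone probe sets 15 were inside the window. Above it were 250433_at (3.63 and 4.80, ratio 1.32), 247692_s_at (4.38 and 5.63, ratio 1.29) and 251924_at (3.285 and 4.11, log2 difference 0.32, at the edge). Each is paired with several histone loci and lay under the brightest Bacillus control in both stages. Of 7 probe sets for genes that are used as references in qPCR of Arabidopsis, 6 were inside. AT2G28390 was above, at a ratio of 1.28, from means of 5.15 and 6.57 that also lay under that control. Going the other way, the ubiquitin-conjugating enzyme genes UBC28 (22.1 and 16.4, ratio 0.743) and UBC29 (0.739) were below the window, and UBC30 (0.856) was inside it.

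**Figure D4:**
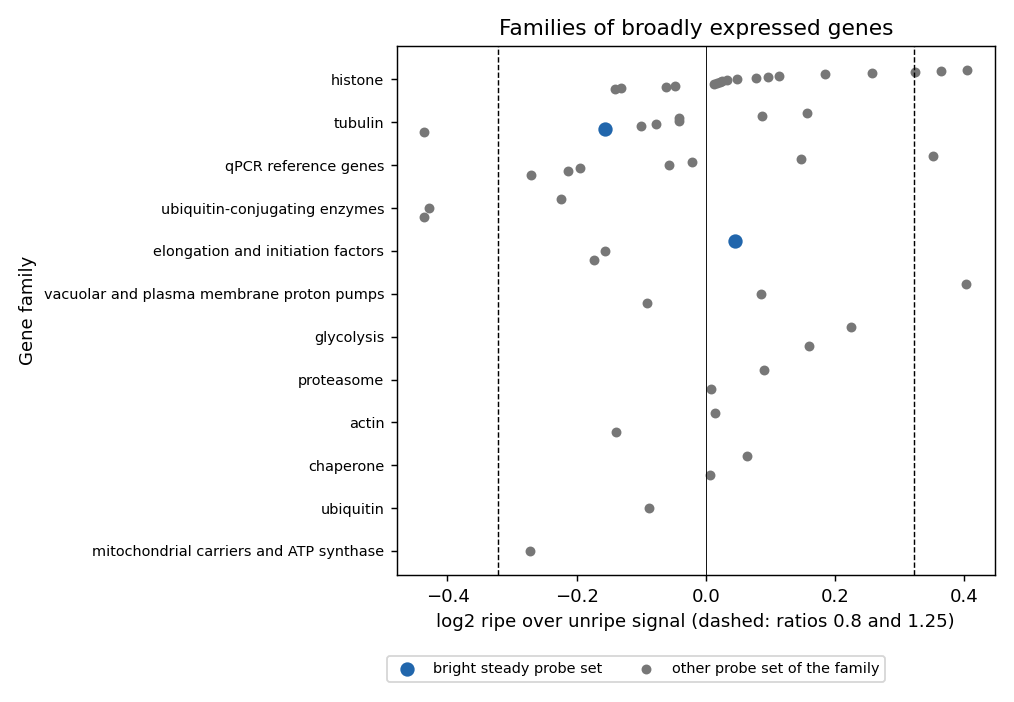
The log2 ratio of ripe to unripe mean signal for each matched probe set of the 12 families (points) with dashed lines at the edges of the ratio window. The 2 members are drawn larger in blue, at -0.16 for alpha-tubulin and 0.045 for elongation factor 1-alpha, and 44 of the 52 points lie between the lines.

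The array also holds control probe sets for Arabidopsis ubiquitin, actin and GAPDH, which the rule left out. Of the 5 for ubiquitin, the small protein that tags others for degradation, 4 had both means above 40 and 4 were inside the window. The brightest was at 1412 and 1605, a ratio of 1.14, and another was at 166 and 170, a ratio of 1.02. The exception to the window had means of 59.8 and 75.2, a ratio of 1.26. Of the 6 actin controls all were inside the window, and 1 of them was bright in both stages, at 51.6 and 52.7. None of the 5 GAPDH controls was above 40, and 1 of them had a ratio of 1.40.

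The steadiness of all members is relative to the table as deposited. The bioB, bioC and bioD hybridization controls, which are added to each sample, had a median log2 difference of -0.60 between ripe and unripe pulp. Scaled to them, every member would be higher in ripe pulp by 0.60 more on the log2 scale, and 1 of the 16 would stay inside the window. Scaled to the cre controls, with a median of -0.053, all 16 would stay. The direction of small differences depends on this scaling. With it 253826_s_at would be higher in ripe pulp (log2 difference 0.051), while 259550_at would stay lower (-0.236).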

How the data were processed

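Signals of the 6 pulp RNA columns were analysed. Per the paper's methods, the authors read the scans with MAS, summarized probes by RMA in GeneSpring and masked probes by papaya genomic DNA. What they deposited is 1 intensity per probe set, an RMA signal on a linear scale. All 22810 probe sets carry one, so that the mask cannot be seen in this table. The paper's supplement lists a smaller number of probe sets as retained. Whether the members are among them was not checked. Genomic DNA signals were not analysed here, since the genomic DNA column of this table held no value.

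Titles gave the stage of each sample. Stage means are means of 3 columns, which count as 1 set of values. The linear model foreseen for columns with a spread was therefore not run, and arrays give no depth. Members and family lists were chosen with earlier results of these data known. All members, their neighbours at both limits and the matched family members were named by rule, from GEO's platform annotation of the array. A probe set with several symbols was assigned to none of them. Family lists were matched by locus or symbol. The selection code was run on simulated signals without noise and with a known answer. That run checks the code only and gives no support to the choice of members. Alternatives were other signal limits (30, 60, the median probe set), windows of 1.1 and 1.5 fold, other scalings, 16 added to each signal, log2 means, single symbols and leaving out each column. Leaving out AT2G07 loci and probe sets with a suffix letter was added after seeing the data. Python 3.11.15, numpy 2.4.6, pandas 2.3.3 and matplotlib 3.10.9 were used.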

Additional observations from a re-analysis of the deposited data

How the results depend on the processing

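The number of members followed the limits of the rule. It was 28 with both means above 30, 8 above 60 and 9099 above the median probe set, 10 in a window of 1.1 fold and 21 in one of 1.5 fold. Scaled to bioB, bioC and bioD it was 5, of which 1 is a member as deposited. With only probe sets of 1 gene symbol it was 2, and with only those without a suffix letter 7. Leaving out each column gave 15 to 18, with at least 14 of the 16 members shared. Since the columns are proportional, this only multiplies a stage by a constant and is no check of stability. Median centring, log2 means and quantile normalization each gave 16, the last sharing 14, while scaling to cre gave 17 and adding 16 gave 18. The members lost under quantile normalization were AT2G07707, the brightest, at a log2 difference of 0.515, and 262566_at, at 0.514. Quantile normalization raised the members' log2 differences by a median of 0.14, and scaling to bioB, bioC and bioD by 0.60. No paired analysis was possible because the columns of each stage repeat 1 set of values. Precision is limited by this and cannot be estimated from the table.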
